A study of Homo sapiens with 12 samples.

Results

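The transcripts described here belong to the transforming growth factor beta (TGF-beta) pathway: the ligands TGFB1, TGFB2, TGFB3 and INHBA, the receptors TGFBR1 and TGFBR2, the inhibitors BAMBI, SMAD7 and SKIL, and the target TGFBI. These 10 genes were listed by name, and their probes were found by matching the RefSeq transcript that the array file gives for each probe to a gene symbol. Each gene had 1 such probe, so 10 of the 50599 probes and 10 of the 20503 named genes on the array were followed. HA22T and PLC5 are human hepatocellular carcinoma (HCC) cell lines, and the study compared them after transfection of either non-targeting siRNA or an siRNA pool against GALNT1, an enzyme that starts O-linked glycosylation. RNA was taken 48 h after transfection with 10 nM siRNA and hybridized to one-color Agilent arrays. The groups were HA22T siControl, HA22T siGALNT1, PLC5 siControl and PLC5 siGALNT1, with 3 arrays each, and all cells received the same transfection reagent. Each line stands for its own tumor only, so a difference between the lines is a difference between 2 cell lines.

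TGF-beta ligands are secreted in a latent form, and the active dimer binds the type II receptor TGFBR2, which then phosphorylates the type I receptor TGFBR1. The activated receptor phosphorylates SMAD proteins, which enter the nucleus and change transcription, and SMAD7 and SKIL are themselves induced and restrain the signal. In liver the pathway is known for limiting hepatocyte growth and for promoting fibrosis, and in carcinoma cells for accompanying loss of epithelial traits. INHBA encodes the subunit of activin A, a relative of TGF-beta that signals through the same class of SMAD proteins.

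Levels are given as the log2 of the background-subtracted intensity minus the 75th percentile of the array, so that 0 is the brightness of the 75th percentile, and differences are log2 differences. A level can be compared between groups for 1 probe, and not between probes. Of 58717 spots, 36679 to 48873 passed the scanner's test against background, depending on the array, and 0 were saturated. The siRNA target was lower in every siGALNT1 array than in the siControl arrays of its line. GALNT1 was at 0.97 ± 0.30 and -4.13 ± 1.26 in HA22T and at 0.62 ± 0.25 and -3.10 ± 1.04 in PLC5 (level, mean ± SD, n = 3), with limma adjusted p = 0.0708 in HA22T and 1.00 in PLC5. Over the settings tried, that p ran from 1.67e-04 to 0.999 and from 0.00900 to 1.00. For a dimmer GALNT1 probe the log2 difference was -4.75 in HA22T (limma adjusted p = 0.0305) and -3.03 in PLC5 (adjusted p = 1.00). Among 10 hepatocyte markers, 9 were lower in HA22T than in PLC5 with either siRNA (limma adjusted p below 0.05). Of all probes tested, 11% were lower with siControl and 13.1% with siGALNT1. TF and TTR were detected over background on at most 1 of 3 arrays of an HA22T group and on 3 of 3 of each PLC5 group. Such probes enter the test through PLC5 and so had to differ. The summed linear level of the 10 markers was 2.35 to 2.92 on the HA22T arrays and 119 to 223 on the PLC5 arrays. Of 8 fibroblast and stellate cell markers, 7 were read, with a summed linear level of 0.791 to 1.47 in HA22T and 0.122 to 0.168 in PLC5. COL3A1 and PDGFRA were above background on 0 of 12 arrays, while LUM was at 0.10 ± 0.26 in HA22T siControl and -6.02 ± 0.70 in PLC5 siControl (n = 3). All 6 HA22T arrays and replicate 1 of both PLC5 groups shared a slide, and the other 4 PLC5 arrays shared another.

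The promoters of TGFB1, TGFB2 and TGFBI are shown because these genes had the largest differences between the lines and a single RefSeq start site each. The windows are the 250 bases before the start on GRCh38.p14, at chr19:41353923-41354172 on the minus strand for TGFB1, at chr1:218345086-218345335 on the plus strand for TGFB2 and at chr5:136028738-136028987 on the plus strand for TGFBI. Capitals mark the letters that matched a motif on either strand.
TGFB1: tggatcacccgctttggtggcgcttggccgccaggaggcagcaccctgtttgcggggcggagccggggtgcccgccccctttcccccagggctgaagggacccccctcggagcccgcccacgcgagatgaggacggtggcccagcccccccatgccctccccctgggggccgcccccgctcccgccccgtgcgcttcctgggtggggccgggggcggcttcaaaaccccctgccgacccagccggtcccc
TGFB2: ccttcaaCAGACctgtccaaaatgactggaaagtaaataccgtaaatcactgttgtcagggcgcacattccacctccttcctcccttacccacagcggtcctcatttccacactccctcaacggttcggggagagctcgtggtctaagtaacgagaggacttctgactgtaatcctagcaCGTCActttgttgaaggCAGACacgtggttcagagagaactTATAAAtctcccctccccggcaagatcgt
TGFBI: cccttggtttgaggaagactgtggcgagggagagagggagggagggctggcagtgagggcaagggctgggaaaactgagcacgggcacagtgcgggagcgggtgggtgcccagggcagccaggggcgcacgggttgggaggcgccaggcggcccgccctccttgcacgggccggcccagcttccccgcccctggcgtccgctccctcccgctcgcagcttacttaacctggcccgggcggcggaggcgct
The motifs searched were the SMAD box CAGAC, the palindrome GTCTAGAC, the AP-1 element TGANTCA, the cAMP response element core TGACG and the TATA box TATAAA. Of 34943 windows of this length, CAGAC was in 38%, GTCTAGAC in 0.183%, TGANTCA in 6.59%, TGACG in 21.2% and TATAAA in 10.8%. The TGFB2 window held CAGAC at -243 to -239 and at -53 to -49, TGACG on the other strand at -70 to -66, and TATAAA at -29 to -24, counted from the start site. The TGFB1 and TGFBI windows held 0 of these motifs. Among the other genes, CAGAC was in at least 1 window of TGFB3, TGFBR1, BAMBI, SMAD7 and SKIL. These matches are letters in a window and were not tied to the levels.

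Between the lines, TGFB1, TGFB2 and SMAD7 were higher in HA22T and TGFBI was higher in PLC5, with siControl and again with siGALNT1. With siControl, 9 of the 10 genes were counted, meaning that 3 or more of the 6 arrays compared detected the probe over background. Of these, 4 passed limma at an adjusted p below 0.05, 3 higher and 1 lower in HA22T, where 22% of all 38011 counted probes passed (11% higher and 11% lower). With siGALNT1, 5 of 10 passed, 3 higher and 2 lower in HA22T, where 22.9% of 36741 counted probes passed (9.79% higher and 13.1% lower). Without TGFB2, whose probe was counted through HA22T alone and so had to differ, 3 of 8 and 4 of 9 passed. All 4 genes named first passed in both, as did 17.4% of the 35837 probes counted in both. The median difference of the counted genes was -0.05 with siControl and -0.34 with siGALNT1, against 0.04 and 0.10 over all counted probes. The arrays do not tell apart a lower share of expressing cells and less RNA per cell.

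**Figure D1:**
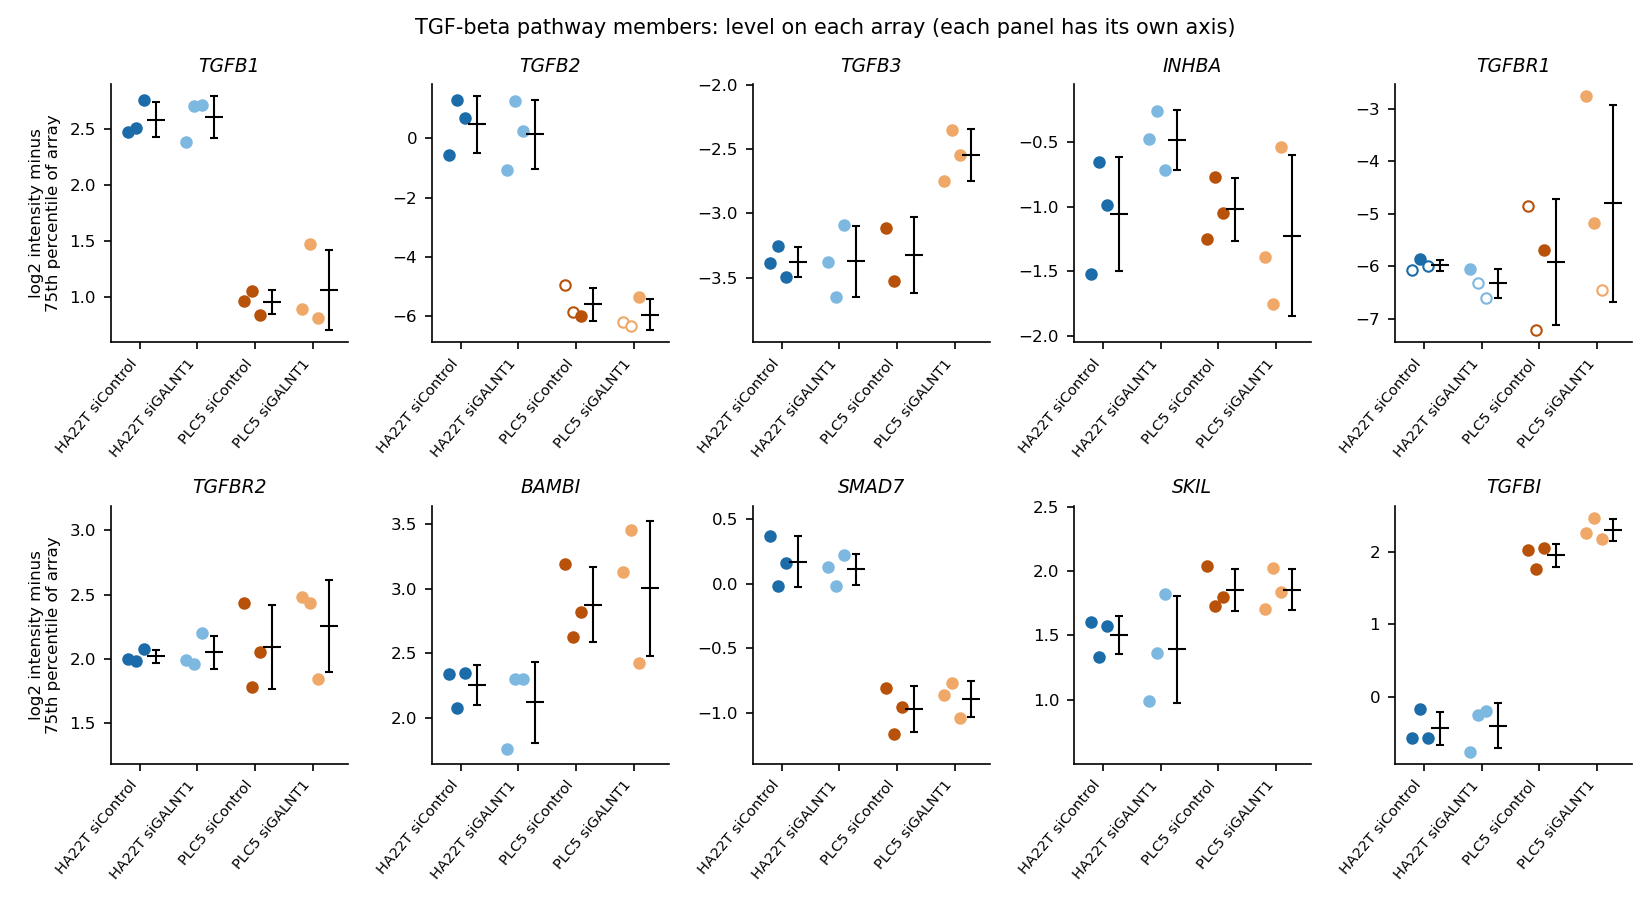
Level of each gene on every array (y axis, log2 intensity minus the 75th percentile of the array) by group (x axis). Points are arrays, open points are not well above background, and bars are the mean ± SD of the group. The HA22T and PLC5 points are separate for TGFB1, TGFB2, SMAD7 and TGFBI.

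TGFB1 encodes the most widely expressed TGF-beta ligand. Its level was 2.48, 2.51 and 2.76 on the HA22T siControl arrays and 0.97, 1.06 and 0.85 on the PLC5 siControl arrays. It was 2.39, 2.71 and 2.72 on the HA22T siGALNT1 arrays and 0.90, 1.47 and 0.82 on the PLC5 siGALNT1 arrays. Every HA22T array was above every PLC5 array. The log2 difference was 1.63 (95% interval 1.08 to 2.17, limma adjusted p = 5.95e-04) with siControl and 1.54 (1.00 to 2.08, adjusted p = 9.05e-04) with siGALNT1, about 3.09-fold and 2.91-fold. The probe was printed as 10 spots, and the SD between spots of 1 array was 0.0712 to 0.223. Within the shared slide the difference was 1.62 and 1.70.

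TGFB2, a ligand with prominent roles in development and in mesenchymal cells, had the largest difference of the 10 genes. Its level was -0.57, 1.31 and 0.67 with siControl and -1.08, 1.25 and 0.27 with siGALNT1 in HA22T. In PLC5 it was -4.96, -5.87 and -6.02 with siControl and -6.21, -6.33 and -5.37 with siGALNT1. The lines did not overlap, and replicate 1 was the lowest HA22T array with either siRNA. In PLC5 only 1 of 3 arrays of each group was well above background, so the size of the difference is set by arrays that mostly did not detect the probe. With those arrays at the lowest signal well above background on each, where that was higher, the log2 difference was 5.75 with siControl and 5.40 with siGALNT1, or 53.7-fold and 42.4-fold. On the values as measured it was 6.09 and 6.12 (limma adjusted p = 3.12e-05 and 3.16e-05). Under the other settings tried, the log2 difference went down to 4.78 with siControl and 4.36 with siGALNT1.

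TGFB3, the remaining TGF-beta ligand, was dim. Its level was -3.39, -3.26 and -3.49 in HA22T siControl and -3.38, -3.65 and -3.09 in HA22T siGALNT1. It was -3.12 and -3.53 in PLC5 siControl, where the spot of replicate 3 was excluded as non-uniform, and -2.75, -2.35 and -2.54 in PLC5 siGALNT1. The PLC5 siGALNT1 arrays were above all other arrays, and the other groups overlapped. The log2 difference, HA22T minus PLC5, was -0.05 (-0.68 to 0.57, limma adjusted p = 0.918) with siControl and -0.83 (-1.39 to -0.26, adjusted p = 0.0395) with siGALNT1. The second call did not pass under 9 of the 16 other settings tried, and over these and the 12 settings that leave out an array its adjusted p ran from 0.0268 to 0.454.

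INHBA gave overlapping lines. Its level was -1.52, -0.65 and -0.99 in HA22T siControl, -0.47, -0.25 and -0.72 in HA22T siGALNT1, -1.25, -0.77 and -1.05 in PLC5 siControl and -1.39, -1.75 and -0.53 in PLC5 siGALNT1. The log2 difference between the lines was -0.03 (-0.80 to 0.73) with siControl and 0.74 (-0.02 to 1.51, limma adjusted p = 0.15) with siGALNT1. Without replicate 3 of PLC5 siGALNT1, the highest array of that group, the latter was 1.09 (limma adjusted p = 0.0343). The SD between the 10 spots of this probe was 0.136 to 0.437 on an array.

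The receptors did not pass the test between the lines. TGFBR2, the receptor that binds the ligand first, lay at 1.99 to 2.08 in HA22T siControl, 1.96 to 2.20 in HA22T siGALNT1, 1.78 to 2.44 in PLC5 siControl and 1.85 to 2.49 in PLC5 siGALNT1. The PLC5 values enclosed the HA22T values, and the log2 difference was -0.07 (-0.64 to 0.50, limma adjusted p = 0.886) with siControl and -0.20 (-0.78 to 0.37, adjusted p = 0.615) with siGALNT1. Both intervals include a level 1.5-fold higher in PLC5. TGFBR1, the receptor kinase that acts on the SMADs, was near background, being well above it on 5 of 12 arrays. Its level was between -7.22 and -4.85 in the groups other than PLC5 siGALNT1, where it was -2.76, -5.18 and -6.45. The difference between the lines was -0.06 with siControl (-1.81 to 1.70), where too few arrays detected the probe for it to be counted. The difference with siGALNT1 was -1.53 (-3.28 to 0.23, limma adjusted p = 0.198), and the high array of PLC5 siGALNT1 was replicate 1. With the slide as a block the difference was -3.08 (adjusted p = 0.00392), and without replicate 3 of PLC5 siGALNT1 it was -2.36 (adjusted p = 0.0433).

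**Figure D2:**
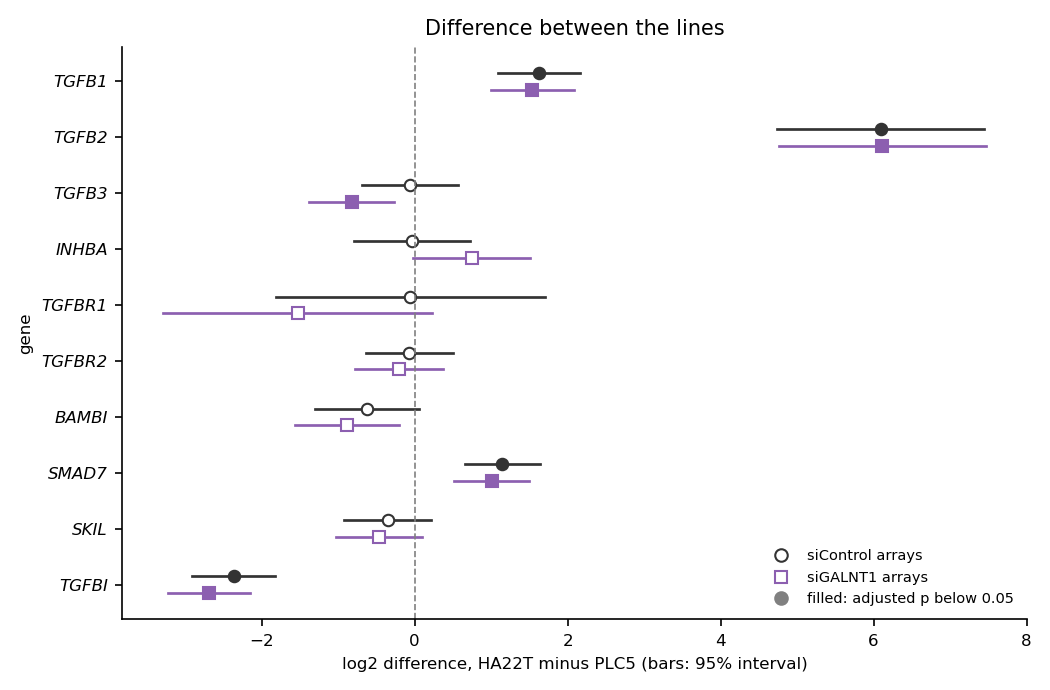
Log2 difference between the lines for each gene, HA22T minus PLC5 (x axis), with siControl (circles) and siGALNT1 (squares). Bars are 95% intervals and filled symbols have a limma adjusted p below 0.05. TGFB2 stands at 6.09 and 6.12, TGFBI at -2.37 and -2.69.

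Among the inhibitors, SMAD7 differed clearly and the other two did not pass. SMAD7, which blocks the activated receptor and marks it for degradation, was at 0.37, -0.02 and 0.16 in HA22T siControl and at 0.13, -0.02 and 0.22 in HA22T siGALNT1. In PLC5 it was at -0.81, -1.16 and -0.95 with siControl and at -0.86, -0.77 and -1.04 with siGALNT1. All HA22T arrays were above all PLC5 arrays. The log2 difference was 1.15 (0.66 to 1.64, limma adjusted p = 0.00312) with siControl and 1.01 (0.52 to 1.49, adjusted p = 0.00717) with siGALNT1, or 2.22-fold and 2.01-fold. With only the 6 siGALNT1 arrays in the fit, its adjusted p was 0.0527.

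BAMBI, a receptor lacking the kinase domain that competes with type I receptors, was higher in PLC5. Its level was 2.34, 2.07 and 2.35 against 3.19, 2.62 and 2.82 with siControl, and 1.76, 2.30 and 2.30 against 3.13, 3.45 and 2.42 with siGALNT1, HA22T against PLC5. The lines did not overlap with either siRNA, as did 42.4% of all counted probes with siControl and 40.7% with siGALNT1. The log2 difference was -0.62 (-1.30 to 0.05, limma adjusted p = 0.187) and -0.88 (-1.56 to -0.21, adjusted p = 0.0609), and neither passed. The siGALNT1 value passed under 5 of the 28 settings, including normexp background correction and quantile normalization. SKIL, which binds SMADs and represses their targets, was at 1.33 to 1.60 in HA22T siControl and 1.72 to 2.04 in PLC5 siControl, without overlap. With siGALNT1 it was at 0.99 to 1.82 and 1.71 to 2.03, with overlap. The log2 difference was -0.35 (-0.92 to 0.22, limma adjusted p = 0.388) and -0.47 (-1.03 to 0.10, adjusted p = 0.224). In all, 6 of the counted genes did not overlap between the lines with siControl and 6 with siGALNT1.

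TGFBI encodes a secreted matrix protein, was named for its induction by TGF-beta and is widely used as a target gene. Its level was -0.55, -0.16 and -0.55 in HA22T siControl and -0.75, -0.24 and -0.18 in HA22T siGALNT1. It was 2.03, 1.76 and 2.05 in PLC5 siControl and 2.25, 2.46 and 2.18 in PLC5 siGALNT1. Every PLC5 array was above every HA22T array, opposite in direction to TGFB1 and TGFB2. The log2 difference was -2.37 (-2.91 to -1.83, limma adjusted p = 3.75e-05) with siControl and -2.69 (-3.23 to -2.15, adjusted p = 1.58e-05) with siGALNT1, or 5.16-fold and 6.44-fold. Within the shared slide it was -2.45 and -2.64. Markers of several cell types differed between the lines as well. Besides the hepatocyte markers, higher in PLC5 as TGFBI was, 1 of 2 counted fibroblast markers passed with either siRNA, LUM, while DCN was at -0.36 with siControl and -0.13 with siGALNT1 (log2 difference, HA22T minus PLC5). LUM was well above background on 1 of 3 arrays of each PLC5 group, so it was counted through HA22T and had to differ. Of 3 counted endothelial markers, 1 passed with either siRNA, PECAM1, lower in HA22T by -5.41 and -5.94. The summed level of 4 endothelial markers was 0.414 to 0.685 in HA22T and 4.06 to 5.91 in PLC5, where PECAM1 made up most of it. With siControl, CDH5 was at -3.08 in HA22T and -2.76 in PLC5, and VWF at -1.60 and -1.53. The monocyte marker CD14 was higher in HA22T by 3.86 and 3.71, and the summed level of 5 leukocyte markers overlapped, at 25.1 to 66.4 and 22.4 to 47.3. The probe of PTPRC made up most of that sum, at 5.05 in HA22T siControl and 5.10 in PLC5 siControl. Whether so bright a probe measures PTPRC was not tested, so the sum does not give a leukocyte level. Of the 5 leukocyte markers, 1 passed as higher and 1 as lower in HA22T with siControl, and 2 and 1 with siGALNT1. Their part in the differences between the lines was not tested.

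After the siRNA against GALNT1, no transcript of the 10 passed the test in either line. In HA22T, 0 of 9 counted genes passed limma at an adjusted p below 0.05 and 0 at an unadjusted p below 0.05, where 0.00275% and 2.99% of 36327 counted probes did. In PLC5, 0 of 9 passed at the adjusted threshold (0% of 38070 counted probes) and 1 at an unadjusted p below 0.05 (1.33% of the probes). In HA22T the siGALNT1 and siControl arrays overlapped for every counted gene, and 12% of all counted probes had no overlap. In PLC5 they did not overlap for 2 genes, as for 5.94% of all counted probes. The median difference was 0.00 in HA22T and 0.13 in PLC5, against -0.06 and 0.01 over all counted probes. With 3 arrays against 3, the exact two-sided permutation test cannot give less than 0.1.

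**Figure D3:**
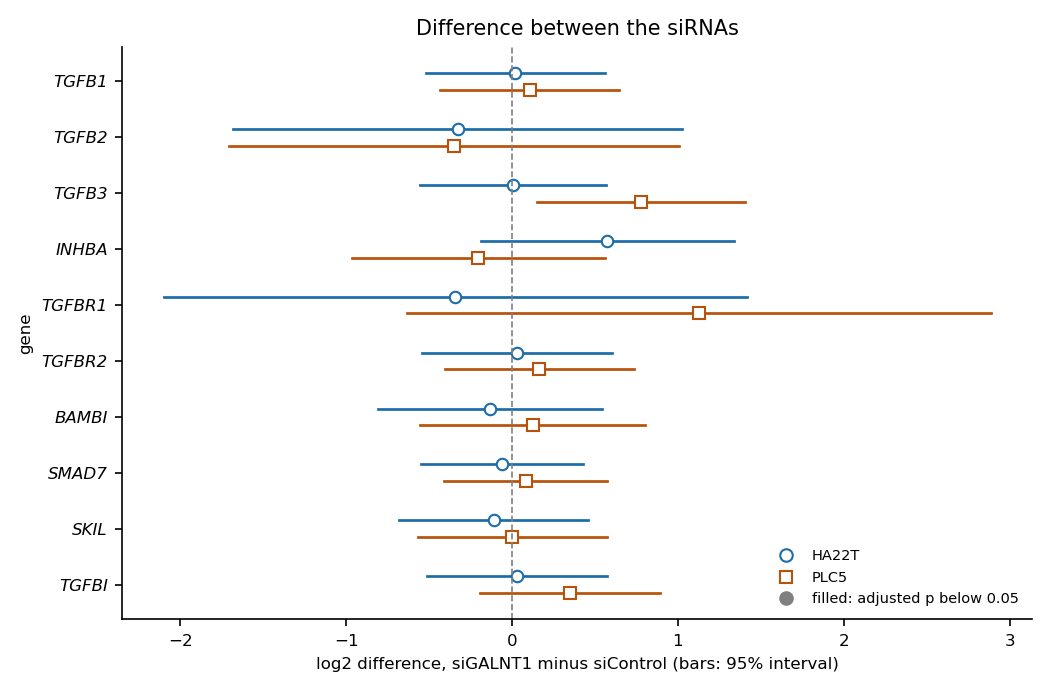
Log2 difference of each gene after siGALNT1, siGALNT1 minus siControl (x axis), in HA22T (circles) and PLC5 (squares). Bars are 95% intervals, and filled symbols would have a limma adjusted p below 0.05. All symbols are open, and TGFB3 in PLC5 is the one interval that leaves out 0.

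TGFB3 in PLC5 was 0.78 higher on the log2 scale with siGALNT1 (95% interval 0.15 to 1.40, limma p = 0.0203, adjusted p = 1.00, exact permutation p = 0.1), which is 1.71-fold. It rests on 2 siControl arrays, and it was 0.38 after normexp background correction, 0.41 with non-uniform spots kept and 0.42 in the deposited table. It was 0.37 on the shared slide and 1.08 on the other. In HA22T the difference of TGFB3 was 0.00 (-0.56 to 0.57). The line difference of TGFB3 with siGALNT1 uses the same PLC5 siGALNT1 arrays, so the values are not separate observations. TGFBI in PLC5 was 0.35 higher (-0.19 to 0.89, limma adjusted p = 1.00, exact permutation p = 0.1) without overlap, from 1.95 ± 0.16 to 2.30 ± 0.15 (n = 3). In HA22T its difference was 0.03 (-0.51 to 0.57).

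In HA22T the largest difference was that of INHBA, at 0.57 (-0.19 to 1.34, limma adjusted p = 1.00, exact permutation p = 0.2), from -1.06 ± 0.44 to -0.48 ± 0.23 (n = 3). The lowest siGALNT1 array lay below the highest siControl array. Between same-numbered HA22T arrays, which deviated together, INHBA was higher with siGALNT1 by 1.05, 0.40 and 0.27. TGFB2 differed by -0.52, -0.06 and -0.41 in these pairs. These were the 2 of 9 counted genes with 1 direction in all 3 pairs, as were 30.4% of all counted probes, and with the replicate number as a block their limma adjusted p was 0.845 and 0.880. In PLC5 the difference of INHBA was -0.20 (-0.97 to 0.56). The intervals of TGFB1, TGFBR2, BAMBI, SMAD7 and SKIL reached from -0.81 to 0.80 at their widest over both lines, and a p that misses the threshold does not show that levels were equal within them. TGFB2 had a wider interval in HA22T, -1.68 to 1.03, and TGFBR1 in PLC5, -0.63 to 2.89. The PLC5 level of TGFBR1 was -5.92 ± 1.20 with siControl and -4.80 ± 1.88 with siGALNT1 (mean ± SD, n = 3). A test of whether the siRNA difference varied with the line gave 0 of 10 genes past an adjusted p below 0.05 and 0 past an unadjusted one in limma, where 0% and 2.43% of 39100 probes did. The difference of differences, HA22T minus PLC5, was 0.78 for INHBA (-0.30 to 1.86) and -0.77 for TGFB3 (-1.61 to 0.07). For TGFBR1, which was near background, it ran from -2.30 to -0.45 with an array left out.

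Other genes of the pathway were read from a list of 59 genes in 6 roles, of which 58 had a value in every group. Between the lines, 25 of 56 counted genes passed limma at an adjusted p below 0.05 with siControl (11 higher and 14 lower in HA22T) and 26 of 56 with siGALNT1 (10 and 16). The shares of all counted probes that passed are those given above. A gene counted through 1 line alone, as INHBE was with siGALNT1, had to differ, and both these counts and those shares include such probes. In the same direction with both siRNAs, 21 of the 58 genes passed, 8 higher in HA22T and 13 higher in PLC5. Of the 35837 probes counted with both siRNAs, 17.4% did. The median difference of the list was -0.18 with siControl and -0.26 with siGALNT1.

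**Figure D4:**
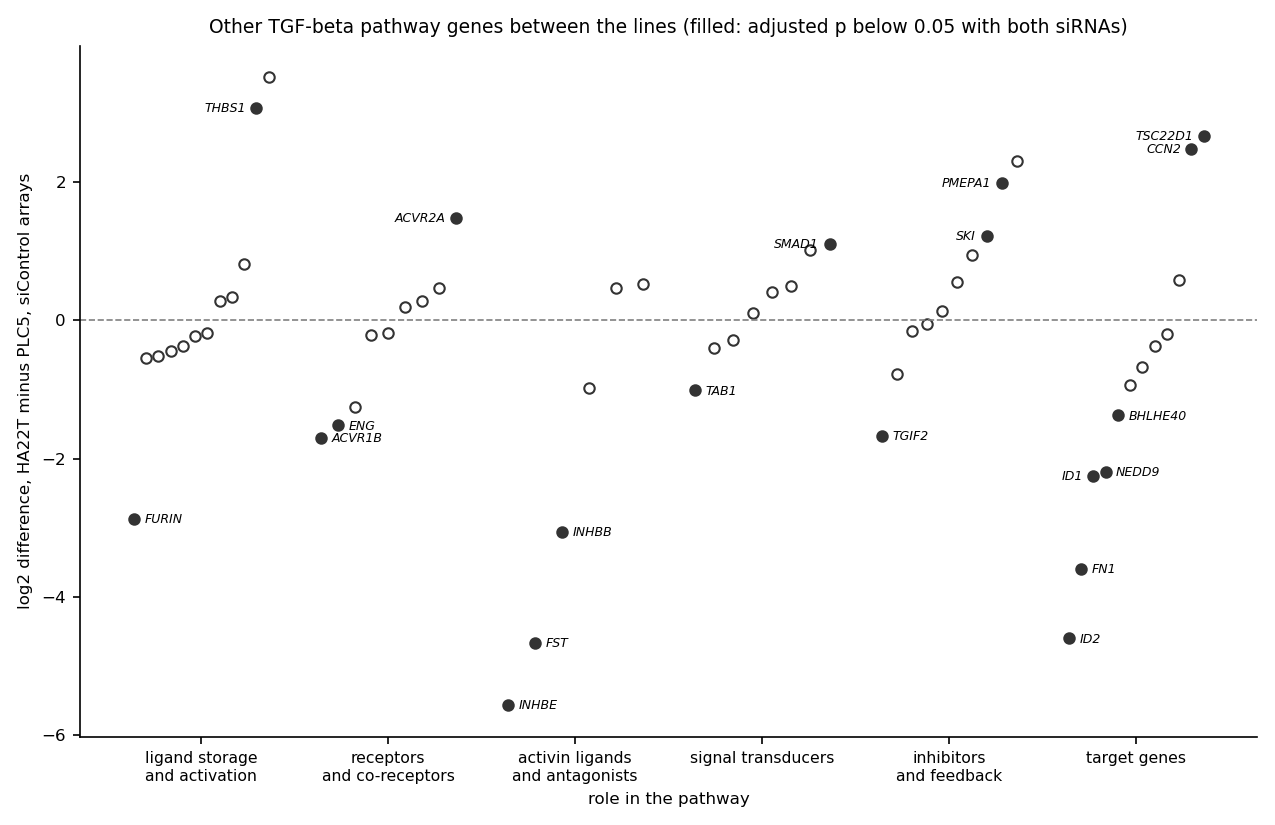
Log2 difference between the lines with siControl, HA22T minus PLC5 (y axis), for each of the other pathway genes, grouped by role (x axis). Filled and named genes had a limma adjusted p below 0.05 with both siRNAs, and 1 target gene is not plotted. The activin genes INHBE, FST and INHBB lie at -5.57, -4.67 and -3.07, and the targets ID2 and FN1 at -4.60 and -3.60.

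Activin ligands and antagonists held the largest differences, and 3 of 6 genes passed with both siRNAs, against 17.4% of all probes counted in both. These 3 genes were all higher in PLC5. FST, which encodes follistatin, a secreted protein that binds and neutralizes activin, was at -0.99 ± 0.35 in HA22T siControl and 3.69 ± 0.43 in PLC5 siControl, a log2 difference of -4.67 (limma adjusted p = 1.05e-06) and of -5.10 with siGALNT1 (adjusted p = 6.44e-07). INHBB, the subunit of activin B, differed by -3.07 and -3.90 (limma adjusted p = 0.00151 and 2.98e-04). INHBB was dim in HA22T, at -4.20 and -5.15, and under the other settings its difference came as near to 0 as -2.35 and -2.52. INHBE, an activin subunit gene expressed mainly in liver, was well above background on 1 of 3 HA22T siControl arrays. Its log2 difference with siControl was -4.56 with the dim arrays at the lowest signal well above background, -5.57 on the values as measured (limma adjusted p = 1.51e-04) and -3.48 after normexp background correction. With siGALNT1, INHBE was not well above background on any HA22T array. With those arrays at the lowest signal well above background, it was 20.5-fold lower than in PLC5. On the values as measured the limma adjusted p was 2.68e-04, and under the other settings the log2 difference came as near to 0 as -3.38. INHBE was counted through its PLC5 arrays, where it was high, so the filter on dim probes favored its call. INHBA, by contrast, overlapped between the lines.

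Of 12 genes for storage and activation of the ligand, 2 passed with both siRNAs, against 17.4% of all probes counted in both. THBS1, encoding thrombospondin 1, a secreted protein that can activate latent TGF-beta, was at 5.13 ± 0.10 in HA22T siControl and 2.06 ± 0.21 in PLC5 siControl, a log2 difference of 3.07 (limma adjusted p = 1.98e-04) and of 3.62 with siGALNT1 (adjusted p = 6.37e-05). FURIN, the protease that cuts the TGF-beta precursor, went the other way, by -2.87 and -3.02 (limma adjusted p = 3.26e-06 and 2.55e-06). Among 9 receptors and co-receptors, the type I activin receptor ACVR1B and the co-receptor ENG were lower in HA22T, by -1.70 and -1.52 with siControl, and the type II receptor ACVR2A was higher by 1.48. ACVR2A was dim, at -5.05 in PLC5 siControl, and its difference went down to 0.945 under the other settings. Among 8 signal transducers, SMAD1, which serves BMP receptors, was higher in HA22T by 1.11 and TAB1, an adaptor of the TAK1 kinase, lower by -1.01 with siControl. With siGALNT1 SMAD1 differed by 0.82 (limma adjusted p = 0.0375) and TAB1 by -1.18 (adjusted p = 0.00727). The SMAD1 call held in 26 of 27 settings with siControl and in 18 of 28 with siGALNT1. That of TAB1 held in 23 of 28 and in 27 of 28.

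Inhibitors and target genes went in both directions. PMEPA1, a TGF-beta induced protein that traps SMADs, was higher in HA22T by 2.00 and 1.89 (limma adjusted p = 2.17e-04 and 3.42e-04), as was the repressor SKI by 1.22 and 2.06, the former from 1 HA22T siControl array because the spots of the others were excluded. The SKI call with siControl held in 17 of 23 settings, with an adjusted p of up to 0.0893 in limma. The repressor TGIF2 was lower by -1.67 and -1.47. Of 13 target genes, 8 passed with both siRNAs, against 17.4% of all probes counted in both. Of these 8, 3 were higher in HA22T, TSC22D1 and CCN2 among them. The 5 that were higher in PLC5 were ID2, FN1, ID1, NEDD9 and BHLHE40. TSC22D1, a leucine zipper gene first described as induced by TGF-beta, differed by 2.67 (limma adjusted p = 4.68e-05). FN1, which encodes fibronectin, differed by -3.60 with siControl and -4.30 with siGALNT1 (limma adjusted p = 2.15e-06 and 6.86e-07). ID2, an inhibitor of helix-loop-helix factors better known as a BMP target, differed by -4.60 and -5.05 (limma adjusted p = 2.02e-06 and 1.09e-06).

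After siGALNT1, 0 of 54 counted genes of the list passed limma in HA22T and 0 of 56 in PLC5, also at an unadjusted p below 0.05. The siRNA groups did not overlap for 8 genes in HA22T and 4 in PLC5, against 12% and 5.94% of all counted probes. In HA22T the largest differences among these were SKI at 0.64 (1 siControl and 2 siGALNT1 arrays) and LRRC32 at 0.48, which anchors latent TGF-beta on the cell surface, and SMAD2 at -0.68 and CDKN2B at -0.60. SMAD2 transmits the signal from TGFBR1, and the 95% interval of its difference was -1.39 to 0.04. CDKN2B encodes a cell cycle inhibitor induced by TGF-beta, and its interval was -1.31 to 0.11. After normexp background correction the difference was -0.047 for SMAD2 and -0.18 for CDKN2B, and with an array left out that of LRRC32 was 0.12 to 0.68. In PLC5 they were BMPR2 at 0.64, which was well above background on 3 of 6 arrays, TGIF1 at 0.38 and SKI at -0.20.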

How the data were processed

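The 12 arrays, in 4 groups of 3, were one-color Agilent 8x60K v2 human arrays. The deposited scanner files hold the intensity of each spot as Feature Extraction 10.5.1.1 wrote it, background already subtracted, with flags. A log2 table deposited by the authors was also read, whose 75th percentile is about 0 on each array. Its centring was found from the values. The labels do not say whether replicates were separate cultures, so p-values measure the spread between arrays.

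Here log2 processed intensity minus the 75th percentile of the non-control spots was used. Spots marked non-uniform were dropped, and the remaining spots of each probe averaged. Probes were named through RefSeq transcripts in a table of GRCh38.p14 (28174 of 50599 matched), and promoters came from RefSeq on the same assembly. The array annotation uses an older build, so no probe coordinates are given. The 4 groups were fitted together with limma 3.58.1 in R 4.3.3, without covariates, with Benjamini-Hochberg adjustment within counted probes (detected over background on 3 or more of the 6 arrays compared). The fit was tested on simulated arrays. The number of arrays limits the precision.

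The members and lists were chosen with earlier results of these data known. Besides all members and GALNT1, named pathway genes are, per role, up to 3 with the largest siControl line difference among those with an adjusted p below 0.05 in both line comparisons, and, for the siRNA, up to 2 rises and 2 falls among genes whose groups did not overlap. Other target genes are named to account for a count, and 1 target gene in the counts is not reported by name here. Where a gene had more than 1 probe, the brightest by its mean over the arrays was used.

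Same-numbered siControl and siGALNT1 arrays deviated together in HA22T (correlations 0.526, 0.264 and 0.338), so they were treated as paired there in an alternative. The pairing comes from these values, and the labels give only the numbers. Differences within pairs were added after seeing the data. The methods name several tests without tying one to the arrays. Student's t-test stands for them here and is called the methods' t-test. Alternatives were normexp background correction (offset 50, on median spot brightness), quantile normalization, median scaling, the deposited table, 2 other filters on dim probes, 2 other treatments of flagged spots, slide or replicate number as a block, 2 other priors, the 6 arrays of a comparison alone, the methods' t-test, the mean over probes, each array left out, and the percentile over unflagged spots, the last chosen after seeing the data.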

Additional observations from a re-analysis of the deposited data

How the results depend on the processing

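The counts of genes that passed were recomputed under 28 settings, 12 of which leave out an array. In the siRNA comparisons and the test of their difference between the lines, 0 of the 10 genes and 0 of the pathway list passed under every setting run. GALNT1, the siRNA target, itself passed in only 5 of 27 settings in HA22T and 1 of 28 in PLC5. The counts of 0 therefore do not show that levels were equal. With siControl, TGFB1, SMAD7 and TGFBI passed between the lines under all 28 settings and TGFB2 under the 27 that tested it. With siGALNT1, 3 genes passed where only the 6 arrays were fitted (TGFB3 and SMAD7 did not), and 4 to 7 with an array left out, the 7 being without replicate 3 of PLC5 siGALNT1. In the pathway list the count was 19 to 25 with siControl and 21 to 25 with siGALNT1 when an array was left out, and 17 to 28 and 18 to 27 under the other settings.

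With the replicate number as a block within each line, 0 genes passed after siGALNT1 in either line, so the pairing changed no siRNA call of the 10 genes. Between the lines the block joined same-numbered arrays of both lines, which is not the pairing seen in HA22T. There 4 genes passed with siControl and 5 with siGALNT1. In PLC5 the same-numbered correlations were 0.580, 5.76e-05 and 0.182, which does not show pairing.

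Differences near 0 changed sign. In HA22T after siGALNT1 they were 0.054 (quantile) and 0.063 (percentile over unflagged spots) for SMAD7, 0.013 for SKIL (unflagged), -0.041 for TGFB1, -0.057 for TGFB3, -0.032 for TGFBR2 and -0.031 for TGFBI (median scaling) and -0.010 for TGFB3 (deposited table). Between the lines with siControl, TGFB3 was 0.095 (quantile), 0.044 (median) and 0.048 (unflagged), INHBA 0.12, 0.072 and 0.075 in the same order, 0.0049 (deposited) and 0.16 (slide block), and TGFBR2 0.037 (median) and 0.040 (unflagged). With siGALNT1, TGFBR2 was 0.020 (unflagged). In the difference of differences TGFB2 was -0.42 (normexp), -0.052 (median) and -0.0027 (deposited), TGFB1 0.031 and SKIL 0.0024 (unflagged). The cause was not tested.

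Leaving out an array turned the sign in HA22T of TGFB1 (-0.036 to 0.13), TGFB2 (-0.88 to 0.28), TGFB3 (-0.14 to 0.14), TGFBR2 (-0.044 to 0.075), BAMBI (-0.22 to 0.048), SMAD7 (-0.16 to 0.039), SKIL (-0.32 to 0.091) and TGFBI (-0.072 to 0.21). In PLC5 it turned TGFB1 (-0.099 to 0.23), INHBA (-0.55 to 0.061), BAMBI (-0.10 to 0.41), SMAD7 (-0.013 to 0.16) and SKIL (-0.082 to 0.094). Between the lines with siControl it turned TGFB3 (-0.26 to 0.15), INHBA (-0.24 to 0.20) and TGFBR2 (-0.22 to 0.10), and the uncounted TGFBR1 went from -0.71 to 0.48. In the difference of differences it turned TGFB1 (-0.21 to 0.12), TGFB2 (-0.53 to 0.64), TGFBR2 (-0.34 to 0.018) and SKIL (-0.33 to 0.088).

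By the methods' t-test at the study's criterion (fold change of at least 1.5 and unadjusted p below 0.05), TGFB3 passed in PLC5 and 0 genes in HA22T after siGALNT1, and 0 after adjustment. Of all counted probes, 309 of 37673 in PLC5 and 712 of 35130 in HA22T met the same criterion. Dim probes limit TGFBR1 in all groups and TGFB2 in PLC5.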

Other observations

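Over the 12 arrays, the genes whose pattern was most like that of a member were found among 11849 genes well above background on all arrays, by the root mean square difference of the log2 levels after each gene was centred on its mean. TGFB1 was closest to TBC1D10A (0.0878) and CD99L2 (0.139), against its own SD of 0.849 over the arrays. TGFBI was closest to CXADR (0.144) and NOMO1 (0.174), against an SD of 1.34. SMAD7 was closest to DYNLL2 (0.103) and SCMH1 (0.107), and BAMBI to NPTN (0.106) and CYTH1 (0.123). The arrays share the line difference and the scaling, so these values describe the arrays and were not tested.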
